A study of Arabidopsis thaliana with 6 samples.

Results

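The transcripts described here are those of the chloroplast and mitochondrial genomes of Arabidopsis thaliana, as read by 1 consecutively numbered block of probe sets (groups of short probes for 1 transcript) on an oligonucleotide expression array. Of the 150 probe sets in that block, 15 are annotated to genes on chromosome 2 and were left out, and 135 of the array's 22746 probe sets without controls remained. Of the 135, 77 are annotated to the plastid genome, where they name 76 genes, 13 to the mitochondrial genome, and 45 to no gene. The array was hybridised with total RNA from 3-week-old plants, with 2 arrays of the vip5 mutant, 2 of the vip6 mutant and 2 of wild type. VIP5 and VIP6 (VERNALIZATION INDEPENDENCE) encode plant counterparts of the yeast proteins Rtf1 and Ctr9 of the Paf1 complex, a nuclear complex that travels with RNA polymerase II. The mutant alleles, the accession, the tissue and whether the arrays of a genotype came from separate plantings are not given in the labels, so the p-values below reflect the spread among these arrays alone, and that spread may be technical.

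Chloroplasts keep a small circular genome of bacterial origin that encodes core subunits of the photosynthetic complexes, the large subunit of Rubisco, part of the plastid ribosome and a bacterial-type RNA polymerase. That polymerase works beside a phage-type polymerase encoded in the nucleus, and neither is RNA polymerase II. The plant mitochondrial genome encodes subunits of the respiratory complexes, proteins for cytochrome c maturation and some ribosomal proteins, and is read by phage-type polymerases. Most proteins of both organelles are nevertheless encoded in the nucleus. Organelle messages are stable largely through RNA-binding proteins, and a poly(A) tail marks an organelle message for decay. The labels do not say how the RNA was primed for labelling, so the values are hybridisation intensities of organelle RNA that the labelling reached. In these bulk samples, fewer organelles and less RNA per organelle cannot be told apart.

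Each array had been scaled by the authors to a common trimmed mean, and all values are deposited intensities on a linear scale. Only probe sets bright enough on 2 or more of the 6 arrays, past the 40th percentile of intensities there, were tested. This held for 97 of the 135 members, among them 75 of 77 plastid and 7 of 13 mitochondrial probe sets and 15 of the 45 with no gene. The untested plastid probe sets were those of ndhF and ycf2, with intensities between 31.5 and 113.5, and the 6 untested mitochondrial ones (nad4L, nad6, nad7, ccmB, ccmFN2 and matR) lay between 2.50 and 113.4. The label of the block was borne out by the annotation for 77 plastid and 13 mitochondrial members. It could not be checked for the 45 with no gene. Of these 45, 10 are numbered among 10 of the chromosome 2 genes left out, in the later part of the block. The genome of those 10 is not settled. They are kept apart below as unassigned, as are the other 35. Among the mitochondrial members, 5 of 13 are of the _s_at kind, in which probes are shared by more than 1 transcript, and 5 of the chromosome 2 genes left out stand among the mitochondrial members in the numbering.

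One array stood apart in organelle transcripts. Wild type replicate 1 was the brightest of the 6 arrays for 38 of 75 plastid and 5 of 7 mitochondrial members, against 17.1% of all tested probe sets, so group medians are also given below without one or the other wild type array. No probe set is named for VIP5 or VIP6 in the annotation used, so the genotype labels were not checked against the mutated genes here. Where a genotype has a pair of values, replicate 1 is followed by replicate 2.

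The vip5 and vip6 arrays were each compared with wild type to ask whether organelle transcripts differ when a subunit of this nuclear complex is mutated. No organelle transcript passed the test in either mutant. Of the 97 tested members, 0 passed limma at a Benjamini-Hochberg adjusted p of 0.05 in vip5, where 11 of all 14323 tested probe sets passed (0.0768%), and 0 passed in vip6, where 15 passed (0.105%). The lowest adjusted p of a plastid member was 0.31 in vip5 (rps19) and 0.244 in vip6 (rpl16), and that of a mitochondrial member was 0.422 in vip5 and 0.298 in vip6 (nad9). At an unadjusted p below 0.05, 0 members were higher and 12 lower in vip5, against 5.12% higher and 5.82% lower of all tested probe sets. In vip6, 1 was higher and 9 lower, against 4.56% and 5.32%. Of the lower members, 7 in vip5 and 4 in vip6 were plastid, which is 9.33% and 5.33% of the 75 tested. In each mutant 1 was mitochondrial and 4 had no gene, 3 of these numbered among the chromosome 2 genes. The 1 higher in vip6 had no gene either. These counts moved with the arrays used, since leaving out 1 array changed them in both mutants. The number of members tested changed as well. No share of all tested probe sets is given for those fits, so their counts are not printed. The 2 wild type arrays serve both comparisons.

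Plastid log2 fold changes lay between -0.68 and 0.53 in vip5, with a median of -0.12 over 75 probe sets, 25 of them above 0 and 50 below. In vip6 they lay between -0.82 and 0.66, with a median of -0.11, 29 above 0 and 46 below. Over all tested probe sets the medians were -0.0042 in vip5 and -0.012 in vip6, with 50.6% and 51.8% below 0. The plastid direction depended on 1 wild type array. Without wild type replicate 1 the median was 0.059 in vip5, with 31 of 75 below 0, and 0.067 in vip6, with 32 below 0. Without wild type replicate 2 it was -0.40 and -0.32, with 55 and 60 below 0. All fold changes are on the log2(intensity + 39.4) scale, on which changes of dim transcripts come out too small.

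The precision was lower for plastid members than for the array as a whole. The 95% interval of the log2 fold change, with no adjustment for multiple testing, had a median half-width of 0.604 over plastid members and 0.497 over all tested probe sets. It lay wholly within 1 log2 unit of 0, which is a change of less than 2-fold either way, for 50 of 75 plastid members in vip5 and 49 in vip6, against 81% and 81.9% of all tested probe sets. For 5 of 7 mitochondrial members in vip5 and 4 in vip6 the same held. For the other members the interval reached a 2-fold difference in at least 1 direction.

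**Figure D1:**
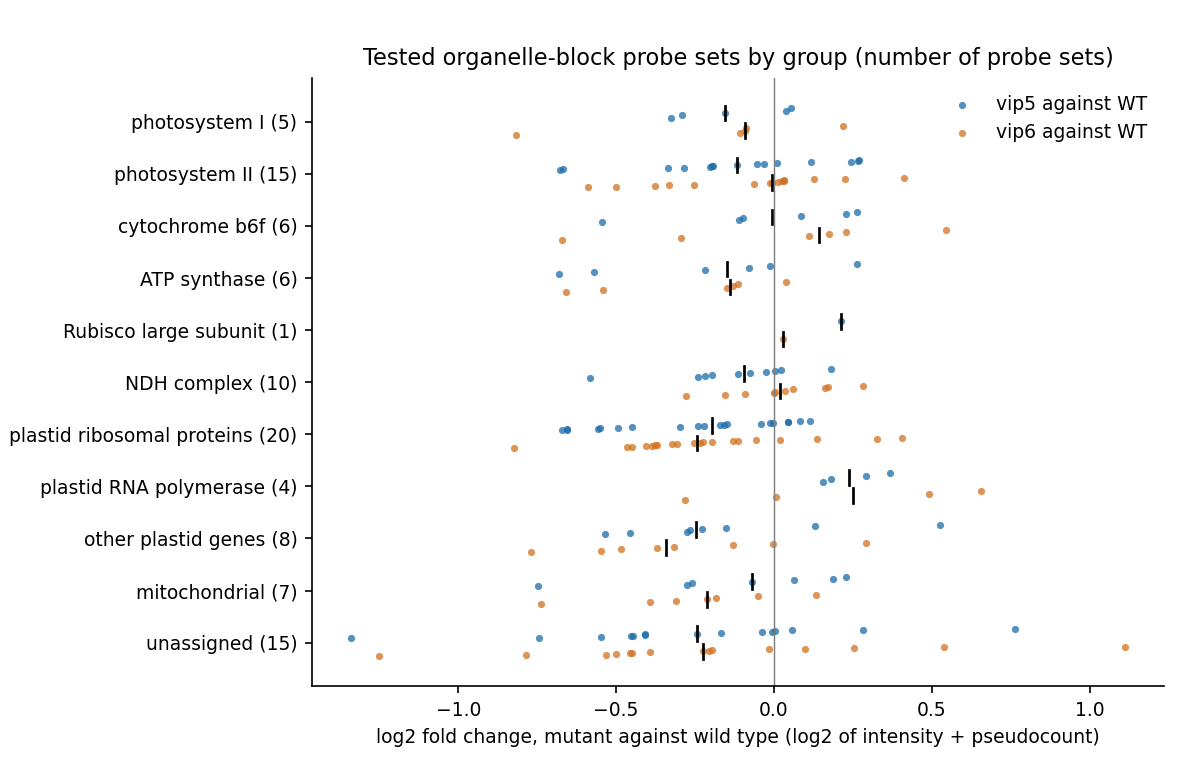
Log2 fold change of each tested member in vip5 (upper points of each row, blue) and vip6 (lower points, orange) against wild type, by the complex or role of the gene, with the number of probe sets in brackets and a black bar at the median. Plastid ribosomal protein genes lie mostly left of 0 in both mutants, with medians of -0.20 and -0.24, but 11 and 10 of 20 did so without wild type replicate 1, and no point passed the test.

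Ribosomal protein genes of the plastid held the lowest adjusted p values. Of 20 tested probe sets, 16 lay below 0 in vip5 and 16 in vip6, with medians of -0.20 and -0.24, and none passed. That lean rested on wild type replicate 1, without which 11 of 20 lay below 0 in vip5 and 10 in vip6, with medians of -0.048 and -0.030. Without wild type replicate 2 the counts were 17 and 18, with medians of -0.48 and -0.40. rpl16, a protein of the large ribosomal subunit, had intensities of 893.5 and 658.8 in vip5, 675.3 and 682.2 in vip6, and 1333 and 1138 in wild type. All 4 mutant arrays lay below both wild type arrays, although the transcript did not pass the test. The log2 fold change was -0.66 (95% interval -1.14 to -0.17) in vip5 and -0.82 (-1.31 to -0.34) in vip6, with limma adjusted p values of 0.336 and 0.244. Within replicate numbers 1 and 2 it was -0.56 and -0.75 in vip5 and -0.94 and -0.71 in vip6.

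rpl16 stands in a row of ribosomal protein genes that are transcribed together in land plant plastids, and its neighbours rpl14, rps3, rpl22 and rps19 were looked at after its values were seen. rps19, of the small subunit, had 4145 and 3180 in vip5, 4380 and 4011 in vip6, and 5775 and 5700 in wild type. Its mutant arrays all lay below the wild type arrays, and its log2 fold change was -0.65 in vip5 and -0.45 in vip6 (adjusted p = 0.31 and 0.515). rpl14 (-0.50 in vip5 and -0.39 in vip6) and rps3 (-0.45 and -0.25) also had all mutant arrays below both wild type arrays, whereas rpl22 (-0.01 and -0.32) overlapped wild type in vip5. Such separation is common on this array, since both vip5 arrays lay below both wild type arrays for 20.8% of all tested probe sets and both vip6 arrays for 20.8%. Among plastid members it held for 13 of 75 in vip5 and 16 of 75 in vip6, and the opposite, both mutant arrays above, held for 3 and 1, against 20% and 19.2% of all.

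Among other ribosomal genes, rpl33 of the large subunit had 9583 and 9577 in vip5, 8531 and 10360 in vip6, and 10370 and 8306 in wild type, with all mutant arrays between the wild type arrays, and its log2 fold changes were 0.05 and 0.02. For rpl2, present in both copies of the inverted repeat and read by 1 probe set for both, it was 0.05 for vip5 and 0.14 for vip6, and for rpl23, also in the repeat, -0.22 and -0.47. rps2, of the small subunit, had 2606 and 1412 in vip5, 3164 and 2188 in vip6, and 4655 and 2033 in wild type, and its log2 fold change of -0.67 in vip5 came with a standard error of 0.43 and overlapping arrays. The lone plastid gene with a pair of probe sets was rps12, whose first probe set had -0.55 (vip5) and -0.41 (vip6) on the log2 scale and whose second by -0.30 and -0.24, none past the test.

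Photosystem genes were spread on both sides of 0. Photosystem I genes, which encode the complex that reduces ferredoxin, had a median of -0.15 in vip5 and -0.091 in vip6 over 5 probe sets. Without wild type replicate 1 these medians were 0.094 and 0.14, and without replicate 2 they were -0.19 and -0.34. psaB, which encodes a core protein of its reaction centre, had 16911 and 24669 in vip5, 17257 and 19764 in vip6, and 20232 and 19133 in wild type, with overlapping genotypes and log2 fold changes of 0.05 and -0.09. psaA, which encodes the partner of PsaB, had 6419 and 2940 in vip5, 3268 and 2905 in vip6, and 3915 and 7622 in wild type. Its wild type arrays were nearly 2-fold apart, and the log2 fold change was -0.82 in vip6 with an interval of -1.78 to 0.14 and -0.33 in vip5. Of the small subunit genes, psaI had -0.29 for vip5 and -0.11 for vip6, and psaJ had 0.04 and 0.22.

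Photosystem II genes, which encode the water-splitting complex, had medians of -0.12 in vip5 and -0.0076 in vip6 over 15 probe sets. Leaving out wild type replicate 1 gave 0.065 and 0.19, and leaving out replicate 2 gave -0.40 and -0.26. The 15 were grouped by their psb names and include psbN, a gene once listed with photosystem II, which had -0.03 in vip5 and -0.59 in vip6. psbF, which encodes a subunit of cytochrome b559, had the highest of these fold changes in both mutants, 0.27 and 0.41, from intensities of 10715 and 17078 in vip5, 12274 and 18132 in vip6, and 9983 and 12582 in wild type. Each genotype was brighter on its replicate 2 array, and the genotypes overlapped. psbM, a small subunit gene, had 13873.5 and 14424 in vip5, 11431 and 26622 in vip6, and 20948 and 24504 in wild type, with both vip5 arrays below wild type and the vip6 arrays on either side of it. Its log2 fold changes were -0.68 and -0.38 with adjusted p values of 0.553 and 0.803. psbT had -0.67 in vip5 and 0.03 in vip6, and psbK had -0.19 and -0.06.

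Cytochrome b6f genes encode the complex between the photosystems, and had medians of -0.0056 in vip5 and 0.14 in vip6 over 6 probe sets. They moved to 0.17 and 0.23 when wild type replicate 1 was left out and to -0.31 and -0.20 when replicate 2 was. petB, which encodes cytochrome b6, had 20213 and 32653 in vip5, 19765 and 28462 in vip6, and 18444 and 26098 in wild type, and petA, which encodes cytochrome f, had 9620 and 9980 in vip5, 8696.5 and 6494 in vip6, and 9010 and 9447 in wild type. The genotypes overlapped for petB, while for petA both vip5 arrays lay just above wild type and both vip6 arrays below it. The log2 fold changes were 0.23 and 0.11 for petB and 0.09 and -0.29 for petA, and none passed. petN, a small subunit gene, had 0.55 in vip6 (interval -0.14 to 1.24), from 408.7 and 462.9 in vip6, against 393.1 and 205.1 in wild type.

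ATP synthase genes had medians of -0.15 in vip5 and -0.14 in vip6, with 5 of 6 probe sets below 0 in each. Both medians stayed below 0 without either wild type array, at -0.16 and -0.34 without replicate 1 and at -0.14 and -0.33 without replicate 2. The counts below 0 were less steady, at 5 and 4 of 6 without replicate 1 and 3 and 4 of 6 without replicate 2. atpF, which encodes a stalk subunit that joins the membrane part to the catalytic head, had 3319 and 2015 in vip5, 2640 and 2607 in vip6, and 3841 and 4523 in wild type. All mutant arrays were below wild type. The log2 fold change was -0.68 (-1.27 to -0.09) in vip5 and -0.66 (-1.25 to -0.07) in vip6, with adjusted p values of 0.401 and 0.461, and within replicate numbers 1 and 2 it was -0.21 and -1.15 in vip5 and -0.53 and -0.79 in vip6. For the large subunits of the head, atpA had -0.22 for vip5 and -0.13 for vip6 and atpB had 0.26 and 0.04, and atpE, of the central stalk, had -0.01 and -0.15.

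rbcL, which encodes the large subunit of the carbon-fixing enzyme Rubisco, had 1559 and 2558 in vip5, 1572 and 1960 in vip6, and 1690 and 1750 in wild type. The genotypes overlapped, and the log2 fold changes were 0.21 (interval -0.39 to 0.81) and 0.03 (-0.57 to 0.63). NDH genes, which encode a complex of cyclic electron flow related to respiratory complex I, had medians of -0.095 in vip5 and 0.019 in vip6 over 10 tested probe sets. Leaving out wild type replicate 1 gave 0.054 and 0.26, and leaving out replicate 2 gave -0.42 and -0.39. ndhI had 17924 and 17937 in vip5, 17146 and 26915 in vip6, and 17829 and 17490 in wild type, ndhD had log2 fold changes of 0.00 and 0.00, and ndhC had -0.22 and 0.06.

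The plastid RNA polymerase genes rpoA, rpoB, rpoC1 and rpoC2 encode the bacterial-type enzyme itself. In vip5 all 4 lay above 0, with a median of 0.24 and a highest value of 0.37 for rpoA, and in vip6 3 of 4 did, with a median of 0.25 and a highest value of 0.66 for rpoC1. None passed, and this group had the widest intervals, with a median half-width of 0.866. Leaving out wild type replicate 1 gave medians of 0.75 and 0.73, and leaving out replicate 2 gave -0.27 in each mutant. rpoA had 3323.5 and 4263 in vip5, 4249 and 3958 in vip6, and 5579.5 and 1506 in wild type. All 4 mutant arrays lay between the 2 wild type arrays. rpoC1 had 3438.5 and 2236 in vip5, 4175 and 3591 in vip6, and 4167 and 1423 in wild type, where wild type replicate 2 was again the dimmest array and both vip5 arrays lay between the wild type arrays. rpoC2 had 0.29 in vip5 and -0.28 in vip6.

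The 8 remaining tested plastid genes had medians of -0.25 in vip5 and -0.34 in vip6, which leaving out wild type replicate 1 turned to 0.26 and 0.036 and leaving out replicate 2 to -0.40 and -0.42. Among them, clpP, which encodes a protease subunit, had 13843 and 17877 in vip5, 11847 and 15037 in vip6, and 12540 and 9480.5 in wild type. Its vip5 arrays were both above wild type and its vip6 arrays overlapped it, with log2 fold changes of 0.53 (adjusted p = 0.473) and 0.29. matK, which encodes a splicing factor for plastid introns, had 5999 and 7064 in vip5, 6741 and 7096 in vip6, and 9876.5 and 8102 in wild type, with all mutant arrays below wild type, and its fold changes of -0.46 and -0.37 had adjusted p values of 0.454 and 0.587. ycf4, which encodes an assembly factor of photosystem I, had -0.77 in vip6 with a standard error of 0.42, and ccsA, which acts in cytochrome c assembly, had 0.13 and -0.00.

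Of the mitochondrial members, 7 were bright enough to be tested, with medians of -0.071 in vip5 (3 above 0 and 4 below) and -0.21 in vip6 (1 above and 6 below). Without wild type replicate 1, 6 were tested, with medians of 0.16 in vip5 and 0.12 in vip6 and 4 above 0 and 2 below in each. Without wild type replicate 2 the medians were -0.52 and -0.62, with 5 and 7 of 7 below. nad9, which encodes a subunit of respiratory complex I, had 106.9 and 99.4 in vip5, 62.3 and 65.6 in vip6, and 164.3 and 106.7 in wild type. Both vip6 arrays lay below both wild type arrays, while 1 vip5 array lay just above the dimmer wild type array. The log2 fold change was -0.74 (-1.23 to -0.25) in vip6 and -0.28 (-0.76 to 0.21) in vip5, with adjusted p values of 0.298 and 0.693. nad4, also of complex I, had 411.0 and 388.3 in vip5, 473.4 and 375.3 in vip6, and 668.7 and 209.8 in wild type, so that the mutants lay between the wild type arrays.

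cox2, which encodes a subunit of cytochrome c oxidase, had 105.3 and 168.8 in vip5, 62.1 and 85.9 in vip6, and 89.5 and 130.8 in wild type. Of the cytochrome c maturation genes, ccmFN1 had a log2 fold change of -0.07 for vip5 and -0.31 for vip6, and ccmFC had -0.26 and -0.18. mttB, which encodes a membrane protein of the twin-arginine transport family, had 0.19 and -0.05, and the probe set shared by the mitochondrial rps3 and rpl16 had -0.75 and -0.21. The untested probe set of matR, which encodes a maturase, was at 43.3 and 46.8 in vip5, 29.8 and 61.4 in vip6, and 2.5 and 4.6 in wild type. All mutant arrays were brighter than wild type there, but all values were in the dim range that was not tested, and no fold change was taken.

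The mutants were also compared with each other. For vip6 against vip5, 0 of 97 members passed limma at an adjusted p of 0.05, as did 0% of all tested probe sets, and 1 member, cox2, was lower at an unadjusted p below 0.05, as were 0.775% of all, while 0 were higher, against 0.761% of all. cox2 had 62.1 and 85.9 in vip6 and 105.3 and 168.8 in vip5, a log2 difference of -0.62 with an interval of -1.21 to -0.04 and an adjusted p of 1. The vip6 arrays were both below the vip5 arrays. The plastid median was 0.030, with 43 of 75 above 0 and 32 below, where 51.6% of all tested probe sets were below. Both vip6 arrays lay above both vip5 arrays for 11 plastid members and below them for 7, against 12.2% and 13.4% of all. The interval of the difference lay within 1 log2 unit of 0 for 53 of 75 plastid members, against 91.6% of all tested probe sets. The widest plastid differences were those of psbT (0.69, interval -0.30 to 1.69) and rpoC2 (-0.57, -1.25 to 0.10).

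The 15 tested members with no gene had a wider range of fold changes than the annotated ones. That width came from the 8 of them that are numbered among the chromosome 2 genes. The lowest was 245038_at, with 295.2 and 56.3 in vip5, 304.9 and 65.6 in vip6, and 511.4 and 333.3 in wild type, and log2 fold changes of -1.34 in vip5 and -1.25 in vip6 (adjusted p = 0.532 and 0.596). Both mutants were below wild type, by far more on the replicate 2 arrays than on the replicate 1 arrays. The highest was 245035_at, with 402.4 and 127.0 in vip5, 567.8 and 156.7 in vip6, and 138.2 and 104.0 in wild type, and log2 fold changes of 0.76 and 1.11. It was high on the replicate 1 arrays of both mutants. 245046_at had -0.74 and -0.79, and 244906_at, numbered among mitochondrial members, had 0.28 and 0.54. Without the 10 members numbered among chromosome 2 genes, the tested members with no gene had medians of -0.17 in vip5 and -0.20 in vip6 over 7 probe sets.

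The wild type arrays differed from each other in organelle transcripts more than the arrays of either mutant did. Relative to each probe set's mean over the 6 arrays, the median plastid level was -0.081 and -0.041 in vip5, -0.095 and 0.022 in vip6, and 0.31 and -0.12 in wild type, in log2 units for replicates 1 and 2. The mitochondrial medians were 0.021 and 0.025 in vip5, -0.056 and -0.085 in vip6, and 0.58 and -0.15 in wild type. Over all tested probe sets these medians lay between -0.012 and 0.019.

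Of the plastid members, 3 were more than 2-fold apart between the vip5 arrays, 2 between the vip6 arrays and 15 (20%) between the wild type arrays, where 2.83%, 2.5% and 2.16% of all tested probe sets were. In 13 of those 15, wild type replicate 1 was the brighter. They include genes of the RNA polymerase, the NDH complex, the ATP synthase and the ribosome, and the following were picked for their wild type difference. ndhJ had 1848 and 1595 in vip5, 1704 and 1708 in vip6, and 2751 and 821.9 in wild type, and ycf3, which encodes a photosystem I assembly factor, had 322.0 and 377.6 in vip5, 385.4 and 367.1 in vip6, and 705.4 and 238.4 in wild type. petL, a small cytochrome b6f subunit gene, had 1597 and 1182 in vip5, 1631 and 1732.5 in vip6, and 2791 and 782.3 in wild type. In each of these, all mutant arrays lay between a bright wild type replicate 1 and a dim wild type replicate 2.

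**Figure D2:**
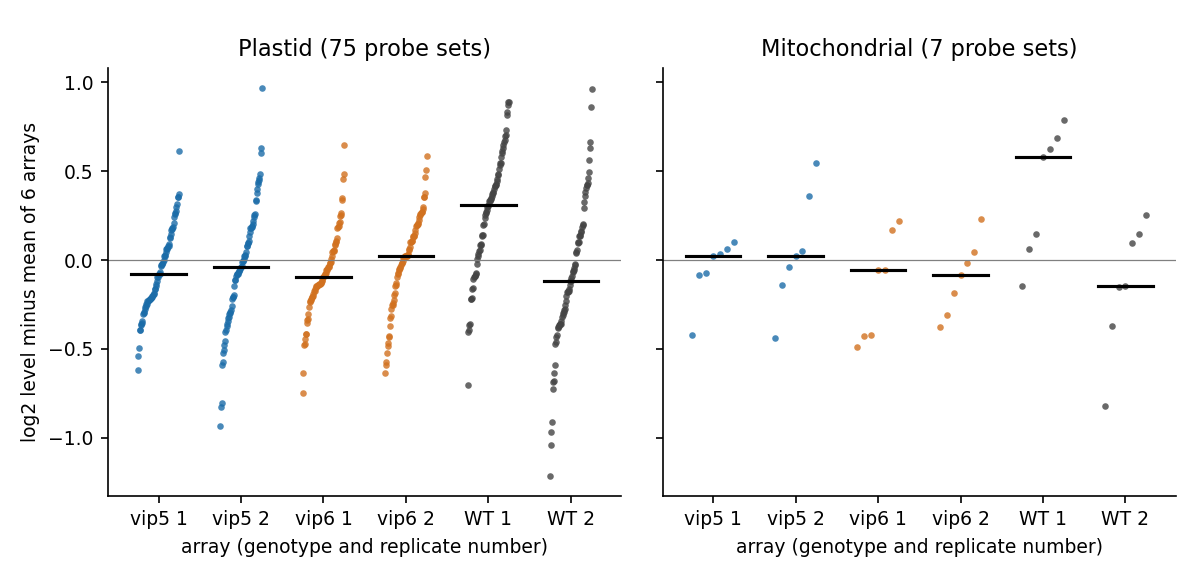
Log2 level of each tested plastid (left) and mitochondrial (right) member on each array, minus the mean of that probe set over the 6 arrays, with points sorted within an array and a black bar at the median. The wild type replicate 1 medians, 0.31 and 0.58, stand above those of the other 5 arrays.

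The wild type arrays held both the highest and the lowest of the 6 values for 17 of 75 plastid members, against 6.1% of all tested probe sets, while this held for 4 with the vip5 arrays and 2 with the vip6 arrays, against 6.35% and 4.87%. The 2 plastid genes whose wild type replicate 2 was more than 2-fold brighter were rpl36, at 986.4 and 2598, and ycf4, at 2744.5 and 5735. psaA ran the same way, at 3915 and 7622, so wild type replicate 1 was not brighter for all plastid genes. RNA quality measures also stood apart on these arrays. The array holds 4 pairs of 3' and 5' probe sets for this, a pair from each of 2 designs for actin and for GAPDH. In the first design the 3' to 5' ratio of actin was 8.87 and 12.3 in vip5, 13.3 and 13.9 in vip6, and 15.9 and 8.48 in wild type, and that of GAPDH was 1.18 and 1.18 in vip5, 1.52 and 1.04 in vip6, and 1.75 and 1.27 in wild type. In the second design actin was at 1.37 and 1.54 in vip5, 1.62 and 1.49 in vip6, and 1.86 and 1.29 in wild type, and GAPDH at 0.913 and 0.891 in vip5, 0.916 and 0.915 in vip6, and 1.16 and 0.747 in wild type. Wild type replicate 1 had the highest of all 4 ratios and wild type replicate 2 the lowest of 3, and their part in the organelle values was not tested.

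**Figure D3:**
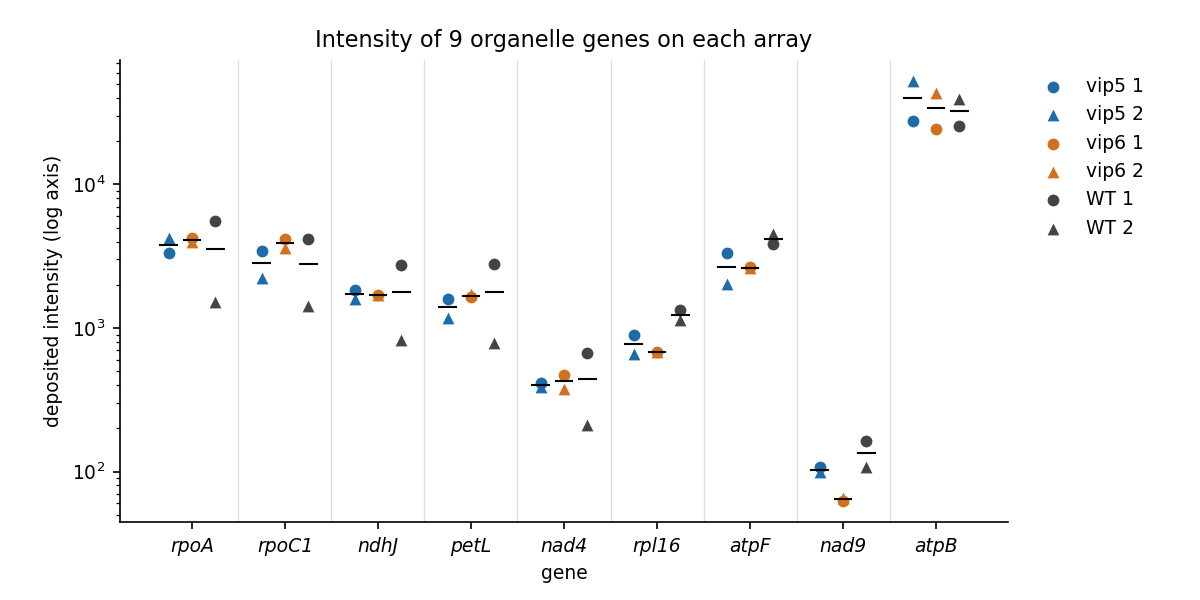
Deposited intensity on a log axis of 9 organelle genes on each of the 6 arrays (circles for replicate 1, triangles for replicate 2), with a black bar at the mean of each genotype. For rpoA, ndhJ, petL and nad4 the wild type arrays lie above and below all mutant arrays, for rpl16 and atpF all mutant arrays lie below wild type, and atpB is brighter on the replicate 2 array of each genotype.

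A few members also differed with the replicate number. The labels number the arrays of each genotype 1 and 2 without saying what the number marks. In a limma fit with genotype and number as terms, 8 of 97 members differed between numbers at an adjusted p of 0.05, 3 higher and 5 lower on number 2, against 0.873% higher and 1.95% lower of all tested probe sets, 2.83% in all. Of these, 6 are plastid genes, named here because they passed. The neighbours atpB and atpE were higher on number 2. In vip5, vip6 and wild type in turn, atpB had 52533, 43396 and 39128 on number 2, against 27566, 24378 and 25692 on number 1, a log2 difference of 0.79 with a standard error of 0.14 (adjusted p = 0.0269), and atpE had 35581, 30505 and 32637 on number 2, against 20219, 19493 and 22400 on number 1 (0.67, adjusted p = 0.0412). In every genotype the replicate 2 array was the brighter for both genes. Such a direction shared by all 3 genotypes held for 10 of 75 plastid members that were higher on number 2 and 10 that were lower, against 21.2% and 21.6% of all tested probe sets.

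psbN, once listed as a photosystem II gene and read from the opposite strand to its neighbours, was the third gene that rose on number 2, with 656.0, 311.6 and 511.4 on number 2, against 192.1, 172.5 and 265.6 on number 1 and a log2 difference of 1.06 (adjusted p = 0.0257). ndhE (-0.95, adjusted p = 0.0257), rps2 (-0.86, 0.0318) and ycf1 (-0.69, 0.0466), which encodes a large membrane protein linked to protein import, were lower on number 2. The other 2 members were the unassigned 245035_at (-1.12) and 245038_at (-1.36). These calls depended on the settings. The 8 became 4 after quantile normalization, where atpB, atpE and ycf1 no longer passed and 1.64% of all tested probe sets did. With the pseudocount divided by 4, 1 passed (psbN), against 1.35% of all. With no filter on dim probe sets 0 passed, against 0.0572% of all. The count fell without a mutant array and rose without a wild type array, and the share called of all tested probe sets moved the same way.

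Bright probe sets in general were brighter on number 2. The 99.9th percentile of the intensities was 37930 in vip5, 34110 in vip6 and 30670 in wild type on number 2, against 20620, 20330 and 22470 on number 1. Among plastid members with a mean intensity above 10000, 6 of 14 were brighter on number 2 in all 3 genotypes (42.9%), against 161 of 192 other probe sets of that brightness (83.9%). Hybridisation control transcripts, of known amount and added to every sample, had number 2 to number 1 ratios of 2.45 to 7.06 in vip5, 1.76 to 3.95 in vip6 and 1.40 to 2.17 in wild type over 18 probe sets. The part of these differences in the atpB and atpE values was not tested.

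**Figure D4:**
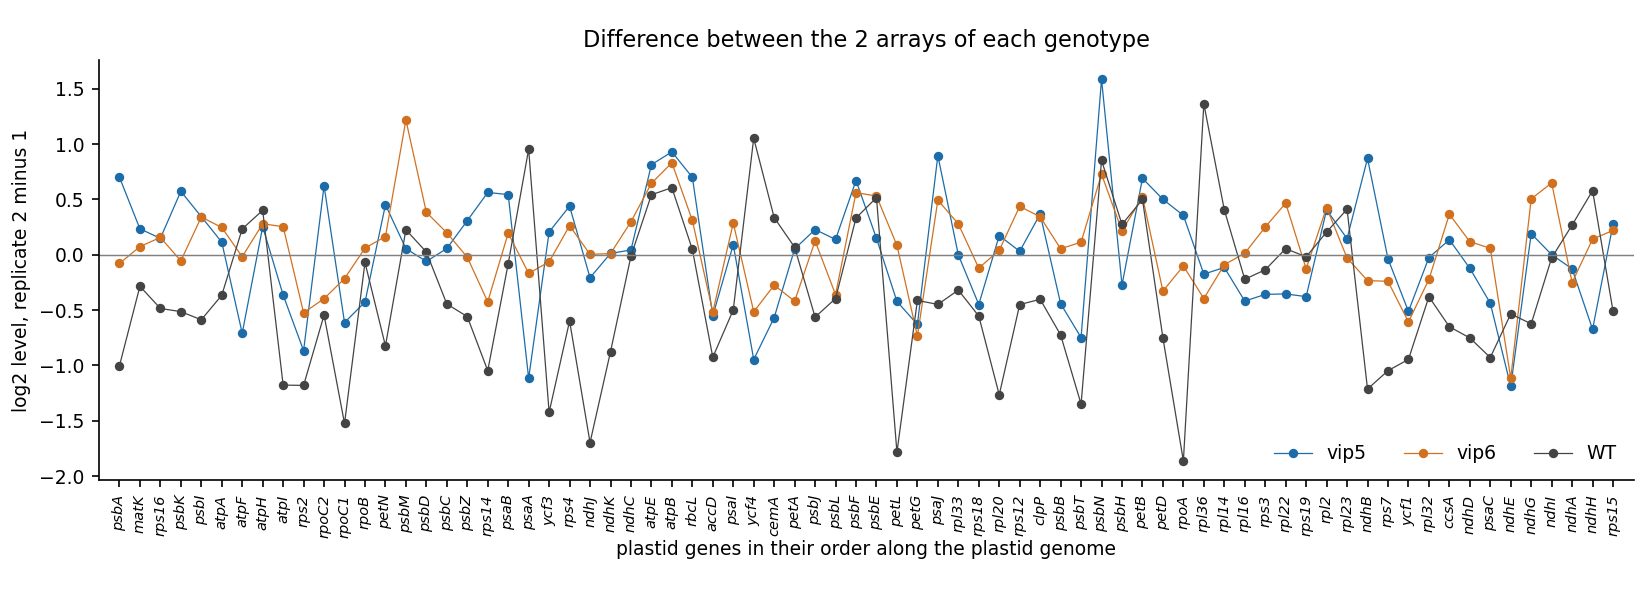
Log2 level on replicate 2 minus replicate 1 within vip5, vip6 and wild type for 74 tested plastid genes in their order along the plastid genome (the first probe set for rps12). The wild type line drops below -1.5 at rpoC1, ndhJ, petL and rpoA, where the mutant lines do not. All 3 lines lie above 0.5 at atpB, atpE and psbN and below -0.5 at ndhE, rps2, ycf1 and accD.

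Neighbouring plastid genes are often transcribed together, and their levels over the 6 arrays were set against each other as a description. Over 63 neighbouring pairs of 68 single-copy plastid genes, the median Pearson correlation of log2 levels was 0.336, against 0.166 over 2215 other pairs. A correlation above 0.8 was found for 13 neighbouring pairs (20.6%) and for 7.09% of the others. Neighbours were taken by gene order alone, whichever strand they are read from, so some pairs, such as psbT and psbN, cannot share a message. The part of shared messages in these correlations was not tested. All pairs share the same arrays, and the array differences described above enter every value. The pairs ndhJ and ndhK (0.972), psbB and psbT (0.970), ycf4 and cemA (0.963) and atpE and atpB (0.957) went together most closely.

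Other neighbours known to share a transcript did not go together. psaA and psaB, which are read as 1 message, had a correlation of -0.468, petB and petD had -0.219, rpoC1 and rpoC2 had -0.0041, and ndhK and ndhC had 0.068. petD, which encodes subunit IV of the same complex, had 204.9 and 306.3 in vip5, 368.6 and 285.7 in vip6, and 364.0 and 200.3 in wild type. petB was brighter on number 2 in every genotype, and petD was so in vip5 alone. These pairs were picked by their correlations, over 6 points each.

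Nuclear genes that serve the organelles were taken from 4 lists, which had few named probe sets. Of 22 genes for organelle transcription, such as sigma factors and polymerase-associated proteins, 1 is named in the annotation used, and of 13 for organelle RNA processing 0 are. That 1 gene, RPOTmp (AT5G15700), which encodes a phage-type polymerase of both organelles, was not bright enough to be tested, at 100.9 and 93.6 in vip5, 107.9 and 22.9 in vip6, and 52.5 and 28.0 in wild type. Of 28 nuclear photosynthesis genes, 7 were tested, 0 passed, and the median log2 fold change was 0.016 in vip5 and 0.032 in vip6. The lowest of the 7 was LHCB4.3, which encodes a minor light-harvesting protein of photosystem II, at 2061 and 3103 in vip5, 2023.5 and 2569 in vip6, and 5764 and 4105 in wild type. All mutant arrays lay below wild type, with log2 fold changes of -0.93 and -1.08 that did not pass (adjusted p = 0.289 and 0.242). Its relative LHCB4.2 had -0.24 and -0.31. At the other end, ATPC1, which encodes the gamma subunit of the plastid ATP synthase, had 0.33 and 0.20, and PSAE1 of photosystem I had 0.19 and 0.19. Of 16 respiratory genes, 5 were tested and 0 passed, with medians of -0.055 in vip5 and 0.060 in vip6, and COX5B, a subunit of the same enzyme as cox2, had -0.055 and 0.038. Organ markers were tested for 3 of 9 genes, RCA of leaves, PYK10 (AT3G09260) of roots and hypocotyls and AT5G07230 of anthers, and 0 passed. PYK10 was at 896.7 and 607.1 in vip5, 716.8 and 869.2 in vip6, and 1094 and 1085 in wild type, below wild type on all mutant arrays. Both arrays of a mutant lay below wild type for 20.8% of all tested probe sets in either comparison. The other markers lay above 0, with log2 fold changes of 0.31 in vip5 and 0.03 in vip6 for RCA and 0.15 and 0.05 for AT5G07230. The part of organ makeup in the organelle values was not tested.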

How the data were processed

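For the 6 arrays, the authors deposited a single table of intensity values on a linear scale, made with software not given in the sources used here. Trimmed means of the 6 arrays, without the lowest and highest 2% of probe sets, lay between 498.5 and 499.5, so the deposited intensities were used as scaled. Values were tested as log2(intensity + 39.4), with 39.4 set from the arrays' 25th percentiles (their median), and the 64 control probe sets were left out. One limma 3.58.1 model (R 4.3.3, lmFit and eBayes) with 3 group means and 3 residual degrees of freedom was fitted to all 14323 tested probe sets, its p-values two-sided and adjusted by Benjamini-Hochberg across the whole set, and the code was tested on simulated data. SDs and per-array values are of deposited intensities.

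Plastid members (77) were matched to the TAIR10.1 gene table by gene identifier and mitochondrial ones (13) by symbol or synonym, for names and gene order only. Of all probe sets, 13513 have 1 symbol, 503 several and 8794 none in the annotation. A probe set listing both copies of 1 gene (8 members) was named by it. Members and lists were chosen with earlier results of these data known. Genes were named if past the threshold, among the 4 highest or lowest fold changes per mutant, or among the 3 brightest of a functional group; others were chosen after their values were seen and are given with that remark or as neighbours. Alternatives covered scaling, the pseudocount, the filter, the arrays in the fit, the replicate number as a block and each array left out. The number of arrays limits the precision. Plots come from matplotlib 3.10.9 (Python 3.11.15).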

Additional observations from a re-analysis of the deposited data

How the results depend on the processing

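The count of organelle members past the threshold was 0 in all 3 comparisons under every alternative run: quantile normalization, scaling on probe sets outside the block, the pseudocount divided or multiplied by 4, no filter, the 2 compared groups alone, the replicate block, and each array left out. With 1 array left out, the median log2 fold change of plastid members ranged from -0.404 to 0.0588 in vip5 against wild type, from -0.321 to 0.0669 in vip6 against wild type and from -0.0593 to 0.0727 in vip6 against vip5, and that of mitochondrial members from -0.516 to 0.161, from -0.619 to 0.121 and from -0.238 to -0.0215. In these fits a genotype with 1 array is assumed to vary like the others. The sign of the plastid and mitochondrial medians against wild type turned without wild type replicate 1. The cause was not tested.

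With the replicate number as a block, the 0 members called stayed at 0 in each comparison. Members at an unadjusted p below 0.05 became 21 of 97 in vip5 (12 without the block), 21 in vip6 (10) and 8 for vip6 against vip5 (1). The share of all tested probe sets at that unadjusted p is not given for the block. Whether the rise is particular to organelle members therefore cannot be told. At an adjusted p of 0.05, the block called 313 of all tested probe sets for vip5 (11 without it). For vip6 it called 253 (15 without it), and for vip6 against vip5 it called 1 (0 without it). The labels do not say that the number pairs the arrays. Over all tested probe sets, differences between the numbers correlated at 0.655 between vip5 and vip6, 0.306 between vip5 and wild type and 0.308 between vip6 and wild type, and over plastid members at 0.489, 0.048 and 0.262. The count of members differing by number, 8, became 4 with quantile normalization, 1 with the pseudocount divided by 4 and 0 with no filter, and ranged from 0 to 18 with 1 array left out. These alternatives for the number, and the group medians without a wild type array, were chosen after the data were seen. Fold changes of named genes changed sign, without passing the test, in up to 19 of 114 values when 1 array was left out and in 11 of 114 after quantile normalization.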
